A study of Homo sapiens with 24 samples.

Results

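The genes described here code for the calcitonin receptor CALCR, the related calcitonin receptor-like receptor CALCRL, the receptor activity-modifying proteins RAMP1, RAMP2 and RAMP3, and adrenomedullin (ADM), one of the family's peptide ligands. They were taken as a list of 6 symbols among 22395 genes, and for each the probe set that named only that symbol was used. Each of the 6 had 1 such probe set. CALCR was chosen by its log2 signal in earlier results of the same arrays, where it stood higher in Aldefluor+ than in Aldefluor- cells of the T47D line, so all values in those fraction comparisons are given as a description with no test. The others were added because they belong to the same receptor system.

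Expression was measured on 24 arrays of sorted human breast cancer cells. SUM159 lacks hormone receptors and HER2 amplification and looks mesenchymal, whereas T47D is a luminal line that carries the oestrogen receptor. Each line received for 3 days either the vehicle DMSO or the small molecule ID8 at 5 µM, was stained with Aldefluor, which marks cells with high aldehyde dehydrogenase activity, and was sorted into Aldefluor+ and Aldefluor- cells. The 8 groups were DMSO Aldefluor+, DMSO Aldefluor-, ID8 Aldefluor+ and ID8 Aldefluor- of each line, with 3 arrays per group, 1 from each of experiments 2, 3 and 4 for SUM159 and 5, 6 and 7 for T47D. A sample pooled the cells of 3 flasks, and the Aldefluor+ gate was set on cells with the inhibitor DEAB. The design text calls the 3 experiments of a line separate, and the arrays of 1 experiment share its number.

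CALCR and CALCRL are class B G protein-coupled receptors, which bind peptide hormones and couple mainly to the stimulatory G protein and cyclic AMP. The RAMPs are single-span membrane proteins that set which peptide a receptor binds. CALCRL needs a RAMP to reach the surface: with RAMP1 it forms the receptor for calcitonin gene-related peptide, and with RAMP2 or RAMP3 the receptors for adrenomedullin. CALCR binds calcitonin alone and amylin together with a RAMP. CALCR is best known from osteoclasts and kidney, CALCRL and RAMP2 from endothelium, and adrenomedullin is secreted by many epithelial and vascular cells and is induced by hypoxia.

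Values are log2 signals after the authors' normalization and batch adjustment, and are set against each other for the same probe set only. A signal below 2 was taken as low, a level where signal over background is small. Of all genes, 49% had a mean below 2 over the 24 arrays, and so had 4 of the 6 members: CALCR (1.66), CALCRL (1.10), RAMP2 (1.85) and RAMP3 (1.18). RAMP1 averaged 2.12 and ADM 2.47. Fold changes of such probe sets are not ratios of transcript number. In sorted bulk samples, fewer cells with a transcript and less transcript per cell cannot be told apart. All 10 SUM159 markers and all 12 T47D markers were higher in their own line, by modest steps. The mean of the SUM159 markers was 4.82 to 5.13 in SUM159 and 4.36 to 4.55 in T47D arrays. That of the T47D markers was 4.31 to 4.53 in SUM159 and 4.88 to 5.11 in T47D arrays. The batch adjustment can shrink such differences, so this check gives direction only. The values were batch-adjusted with batches not known here, so levels are compared within a line. Array medians lay between 1.52 and 1.57. The interquartile range over genes was narrowest, at 2.88 against 2.97 to 3.12, on 1 array of SUM159 Aldefluor+ cells with DMSO (experiment 4), and without that array the same members stood on the same side of the threshold in all comparisons tested.

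CALCR lies on the minus strand of chromosome 7 (GRCh38.p14, positions 93424486 to 93574724) and CALCRL on the minus strand of chromosome 2 (187341964 to 187448252). The RefSeq promoter table holds 2 start sites for CALCR, 14914 bases apart, and 1 for CALCRL. The files do not say where in a gene its probe set lies, so the CALCR signal is not assigned to either start. The 250 bases before each start are shown because these receptors carry the main differences below and because the CALCR starts have unlike sequence; capitals mark matches to the motifs named after them.

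CALCR, upstream start, chr7:93574725-93574974, minus strand: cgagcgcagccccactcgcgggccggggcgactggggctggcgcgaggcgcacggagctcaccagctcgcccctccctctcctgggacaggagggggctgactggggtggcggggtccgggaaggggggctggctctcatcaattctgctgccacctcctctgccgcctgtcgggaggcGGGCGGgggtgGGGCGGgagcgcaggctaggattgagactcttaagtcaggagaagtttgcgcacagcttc
CALCR, downstream start, chr7:93559811-93560060, minus strand: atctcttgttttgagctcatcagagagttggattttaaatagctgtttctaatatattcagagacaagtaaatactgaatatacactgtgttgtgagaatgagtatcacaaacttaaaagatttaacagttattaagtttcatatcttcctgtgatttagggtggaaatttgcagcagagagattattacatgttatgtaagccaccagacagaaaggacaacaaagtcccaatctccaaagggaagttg
CALCRL, chr2:187448253-187448502, minus strand: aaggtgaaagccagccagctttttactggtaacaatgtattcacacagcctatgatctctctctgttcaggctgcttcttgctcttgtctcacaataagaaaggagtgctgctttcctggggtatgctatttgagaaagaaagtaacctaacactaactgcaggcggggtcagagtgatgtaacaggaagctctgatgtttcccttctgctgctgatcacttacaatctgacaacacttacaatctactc

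The upstream CALCR window was 70.8% G and C, the downstream window 34% and the CALCRL window 44%, where the mean over 35116 such windows was 57.2%. On both strands 7 motifs were searched: the cyclic AMP response element TGACGTCA, its shorter form TGACG, which lies within the former, the AP-1 site TGANTCA, the hypoxia cores ACGTG and GCGTG, the GC box GGGCGG and the TATA box TATAAA. The upstream CALCR window held 2 GC boxes, starting 71 and 60 bases before the gene start, and 42.6% of all windows held it at least once. The downstream CALCR window and the CALCRL window held none of the 7. Among the other members with a window in the table, ADM (chromosome 11, 10305073 to 10307397) had a TATA box 27 bases before its start, present in 10.7% of windows, a GC box at 56 bases and GCGTG at 101 bases, a core found in 32.2% of windows. RAMP3 (chromosome 7, 45157791 to 45184250) had GCGTG at 88 bases and 3 GC boxes. These matches are letters in a window and no evidence of binding.

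CALCR separated the T47D fractions. In Aldefluor- cells its signal was 1.08, 1.04 and 1.06 with DMSO and 0.82, 1.03 and 0.92 with ID8 in experiments 5, 6 and 7. In Aldefluor+ cells the same experiments gave 2.08, 1.72 and 2.46 with DMSO and 2.97, 3.00 and 2.61 with ID8. All 6 Aldefluor+ arrays lay above all 6 Aldefluor- arrays, and the 4 groups ranked ID8 Aldefluor+, DMSO Aldefluor+, DMSO Aldefluor- and ID8 Aldefluor- with no overlap between neighbours. Taken as a single pair of groups, the T47D fractions did not overlap for 19.1% of all genes with DMSO and 19.5% with ID8. No share of all genes was computed for the separation over both treatments or for the order of the 4 groups.

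These fraction differences are what singled CALCR out and they support nothing further. With DMSO the group means were 2.09 ± 0.37 and 1.06 ± 0.02 (SD, n = 3), a log2 difference of 1.03 ± 0.19 (SE), with 1.00, 0.69 and 1.39 in the single experiments. With ID8 they were 2.86 ± 0.22 and 0.92 ± 0.10, a log2 difference of 1.94 ± 0.19, with 2.15, 1.97 and 1.70 in the single experiments. At an adjusted p under 0.05, limma called 0.152% of all genes between the T47D fractions with DMSO and 0.366% with ID8. The collected RNA per cell, computed from the labels, also differed between these fractions: 18.3 to 20.4 pg in Aldefluor+ and 10.9 to 17.0 pg in Aldefluor- samples with DMSO, and 12.3 to 20.8 pg against 8.19 to 13.7 pg with ID8. Its part in the CALCR signal was not tested.

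**Figure D1:**
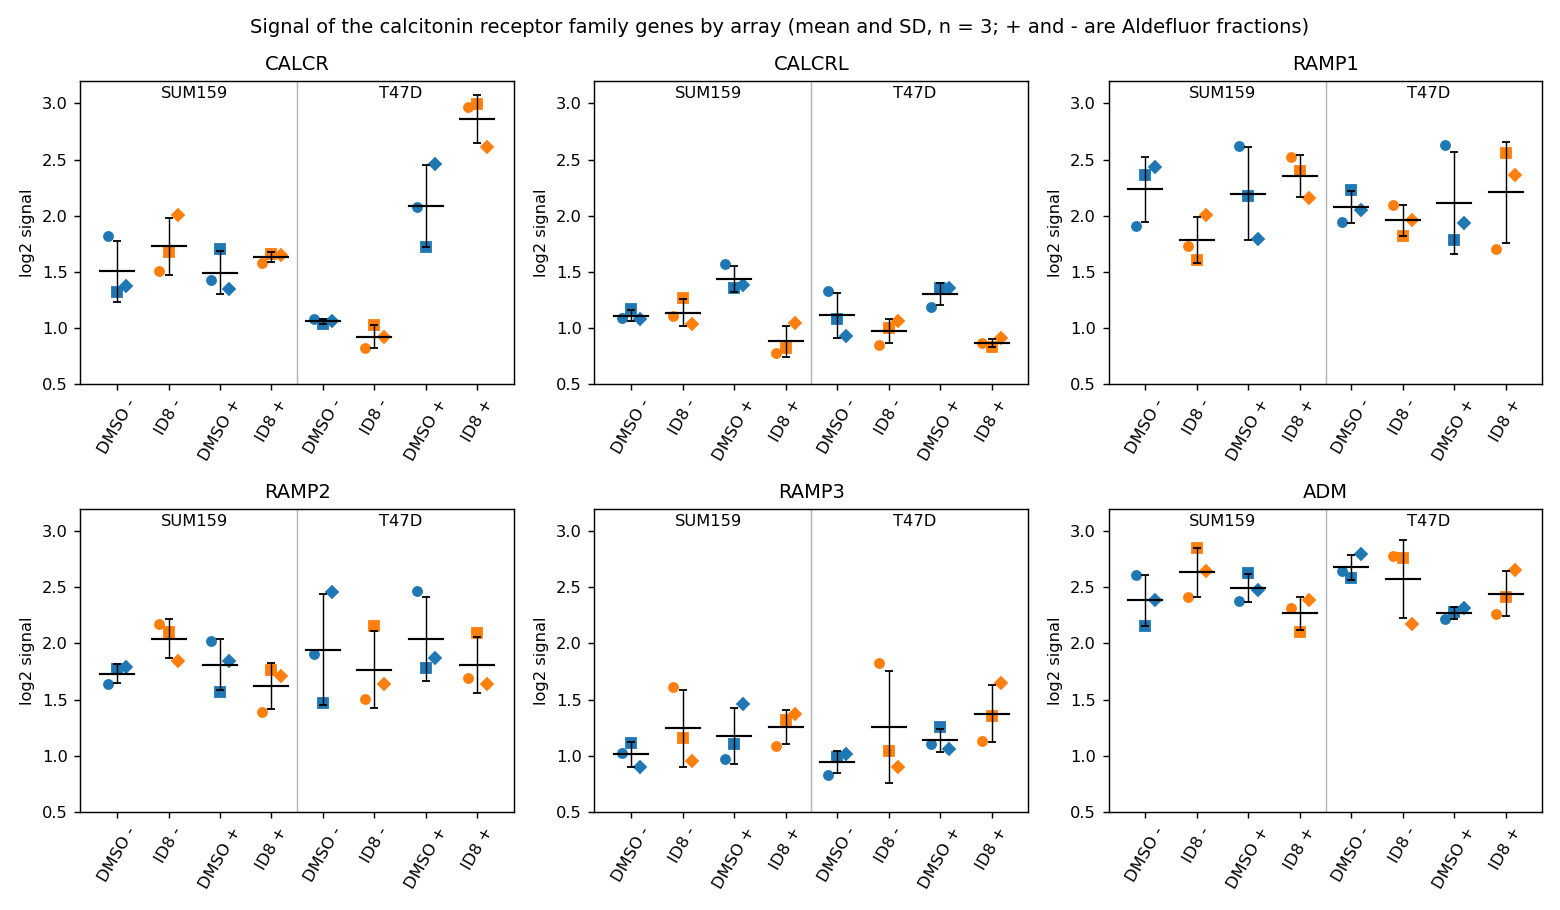
Log2 signal (vertical axis) of the 6 genes in each of 24 arrays; columns are the 8 groups, blue points DMSO, orange points ID8, circles, squares and diamonds the experiments of a line in rising order of number, horizontal bars the group mean and error bars the SD (n = 3). CALCR in T47D rises from about 1 in both Aldefluor- groups to 2.09 and 2.86 in the Aldefluor+ groups, while the group means of RAMP1, RAMP2, RAMP3 and ADM span less than those of CALCR in T47D.

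The study asks what ID8 does to each fraction. In T47D Aldefluor+ cells the mean CALCR signal was 2.86 with ID8 and 2.09 with DMSO, a log2 difference of 0.77 ± 0.19 (SE, 95% interval 0.36 to 1.18), or 1.71-fold. The groups did not overlap, as for 21.2% of all genes in this comparison, and all 3 experiments were above 0, at 0.89, 1.28 and 0.15. The difference did not pass over all genes (limma, Benjamini-Hochberg adjusted p = 0.118). The arrays compared are also among those by which CALCR was chosen, so this test is not independent of the choice. Without the experiment as a block the adjusted p was 0.02. That fit does not allow for the authors' adjustment for experimental batch, so its p-values can be too small. Leaving out 1 experiment at a time moved the log2 difference between 0.52 and 1.08. In T47D Aldefluor- cells the log2 difference was -0.14 ± 0.19 (adjusted p = 0.966), from a signal near 1 in both groups, with the ranges just apart (1.04 to 1.08 against 0.82 to 1.03), as for 16.5% of all genes.

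As a description, the CALCR response to ID8 stood higher in Aldefluor+ than in Aldefluor- T47D cells by 0.91 ± 0.27 (log2, SE). This value contains the fraction comparisons by which CALCR was picked and was not tested for that reason. Against SUM159, the response in Aldefluor+ cells was larger in T47D by 0.64 ± 0.27 (SE, 95% interval 0.06 to 1.22), which did not pass over all genes (limma adjusted p = 0.388). It was 0.39 without experiment 6 and 0.95 without experiment 7. The T47D arrays in it are also among those by which CALCR was chosen, so this test is not independent of the choice.

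In SUM159 the CALCR signal was 1.42, 1.71 and 1.35 in DMSO Aldefluor+ arrays and 1.82, 1.32 and 1.38 in DMSO Aldefluor- arrays of experiments 2, 3 and 4. With ID8 it was 1.58, 1.66 and 1.65 in Aldefluor+ and 1.51, 1.67 and 2.00 in Aldefluor- arrays. Neighbouring groups overlapped throughout the order of the 4 group means. The fractions differed by -0.01 ± 0.19 with DMSO and -0.10 ± 0.19 with ID8 (SE), with 95% intervals of -0.42 to 0.40 and -0.51 to 0.31. With ID8 CALCR differed by 0.14 ± 0.19 in Aldefluor+ and 0.22 ± 0.19 in Aldefluor- SUM159 cells. None of these 4 values passed, with limma adjusted p between 0.844 and 0.996.

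CALCRL, the receptor for calcitonin gene-related peptide and adrenomedullin, had a lower mean with ID8 in Aldefluor+ cells of both lines, at a low signal. In SUM159 its values in Aldefluor+ arrays were 1.57, 1.36 and 1.38 with DMSO and 0.78, 0.82 and 1.04 with ID8 (experiments 2, 3 and 4). In T47D they were 1.19, 1.35 and 1.36 with DMSO and 0.86, 0.83 and 0.91 with ID8 (experiments 5, 6 and 7). Every ID8 array lay below every DMSO array of its line, as for 18.7% of all genes in SUM159 and 21.2% in T47D.

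The log2 difference of CALCRL was -0.56 ± 0.13 (SE, 95% interval -0.83 to -0.28) in SUM159 and -0.43 ± 0.13 (-0.70 to -0.16) in T47D Aldefluor+ cells, below 0 in all 6 experiments. Neither passed over all genes, with limma adjusted p = 0.0981 in SUM159, the smallest among the members, and 0.191 in T47D. Without the experiment as a block these became 0.0107 and 0.0387, in the fit that does not allow for the authors' batch adjustment and whose p-values can be too small. Over the alternatives tried, the adjusted p ranged from 0.0107 to 0.499 in SUM159 and from 0.0387 to 0.585 in T47D. The responses of the lines differed by 0.12 ± 0.18 (T47D minus SUM159, 95% interval -0.26 to 0.51, adjusted p = 0.875).

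In Aldefluor- cells the CALCRL differences were nearer 0: with ID8 it differed by 0.03 ± 0.13 in SUM159 and -0.14 ± 0.13 in T47D (SE, adjusted p = 0.981 and 0.936). The difference of these responses between fractions was -0.58 ± 0.18 in SUM159 (95% interval -0.97 to -0.20, adjusted p = 0.567) and -0.29 ± 0.18 in T47D (-0.67 to 0.09, adjusted p = 0.893). With DMSO, SUM159 Aldefluor+ cells stood above Aldefluor- cells, whose arrays were 1.09, 1.16 and 1.08, by 0.33 ± 0.13 (adjusted p = 0.546). The groups were apart, as for 17.3% of genes. With ID8 the sign was the other, at -0.26 ± 0.13 (adjusted p = 0.688). In T47D the fractions differed by 0.19 with DMSO and -0.10 with ID8.

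CALCRL is best known from endothelium, and markers of that cell type were followed beside it. Of 9 measured endothelial markers, 7 had a mean below 2, and ERG had the highest mean. Their mean signal was 1.46 to 1.53 in T47D Aldefluor+ arrays with DMSO and 1.36 to 1.39 with ID8. In SUM159 Aldefluor+ arrays it was 1.51 to 1.58 with DMSO and 1.46 to 1.52 with ID8, with 1.25 to 1.41 and 1.32 to 1.47 in the Aldefluor- arrays. The marker mean thus went the same way as CALCRL with ID8 in Aldefluor+ cells of both lines and between the SUM159 fractions with DMSO, by smaller steps and with overlap between the SUM159 Aldefluor+ groups. Between the SUM159 fractions with ID8 it went the opposite way, higher in Aldefluor+ cells where CALCRL was lower. Its T47D group means were 1.50 in Aldefluor+ and 1.44 in Aldefluor- cells with DMSO, and 1.38 and 1.40 with ID8. In Aldefluor- cells of SUM159 it was 1.35 with DMSO and 1.39 with ID8. In all of these the marker mean had the sign of CALCRL, as it had for ID8 in T47D Aldefluor- cells. Its part in the CALCRL values was not tested. Leukocyte markers, of which 6 of 7 had a mean below 2, averaged 1.49 to 1.51 with DMSO and 1.29 to 1.38 with ID8 in T47D Aldefluor+ arrays, also lower with ID8. Their group mean in SUM159 Aldefluor+ cells was 1.53 with DMSO and 1.48 with ID8, so the shift was not particular to endothelial markers. Osteoclast markers, fixed because osteoclasts carry CALCR, averaged 1.42 to 1.78 with DMSO and 1.50 to 1.69 with ID8 in T47D Aldefluor+ arrays and 1.42 to 1.53 and 1.43 to 1.66 in Aldefluor- arrays, so these ranges overlapped where CALCR did not.

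**Figure D2:**
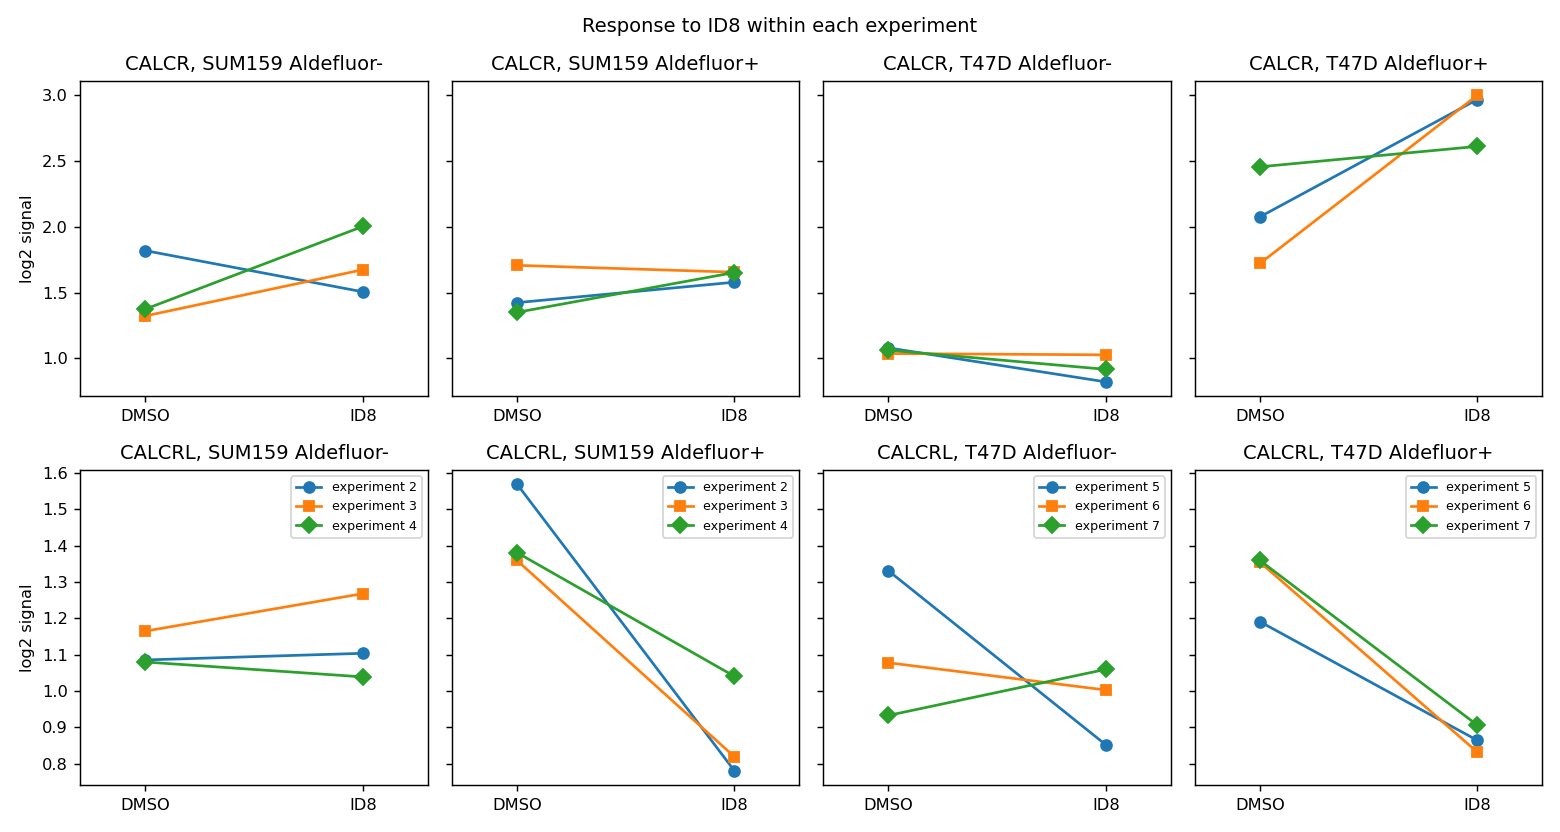
Log2 signal of CALCR (top row) and CALCRL (bottom row) with DMSO and ID8, with a line joining the arrays of each experiment, in the 4 combinations of line and fraction; the rows have different vertical scales. CALCR goes up with ID8 in all 3 experiments of T47D Aldefluor+ cells (by 0.89, 1.28 and 0.15), and CALCRL goes down in all 6 experiments of Aldefluor+ cells.

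The RAMPs, which decide the ligand of both receptors, gave 0 called members in every comparison tested, where 0% to 0.375% of all genes were called. RAMP1, the partner in the receptor for calcitonin gene-related peptide, had its clearest difference between the SUM159 fractions with ID8: 2.52, 2.40 and 2.15 in Aldefluor+ against 1.73, 1.61 and 2.00 in Aldefluor- arrays of experiments 2, 3 and 4. These groups did not overlap, as for 17% of all genes, and differed by 0.57 ± 0.27 (log2, SE, 95% interval 0.01 to 1.14, limma adjusted p = 0.65). With DMSO the SUM159 values were 2.62, 2.18 and 1.80 in Aldefluor+ and 1.91, 2.37 and 2.43 in Aldefluor- arrays, which overlapped. T47D RAMP1 values spread from 1.70 to 2.63 over 12 arrays, and neighbouring groups overlapped throughout. The 4 ID8 comparisons of RAMP1 lay between -0.45 and 0.16, with 95% intervals reaching from -1.02 to 0.72.

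RAMP2, which with CALCRL makes an adrenomedullin receptor, ranged from 1.39 to 2.17 in SUM159 and from 1.47 to 2.46 in T47D. In SUM159 Aldefluor- cells it was 1.64, 1.77 and 1.79 with DMSO and 2.17, 2.11 and 1.85 with ID8. The groups were apart, as for 18.9% of all genes in that comparison, by 0.31 ± 0.25 (SE, adjusted p = 0.833). The SUM159 Aldefluor+ arrays with ID8 were lower than the Aldefluor- arrays with ID8, at 1.39, 1.76 and 1.71. These fractions were apart, as for 17% of all genes, and differed by -0.42 ± 0.25 (SE, limma adjusted p = 0.774). In T47D all neighbouring groups overlapped, and the fraction differences were 0.09 with DMSO and 0.04 with ID8.

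RAMP3, the other adrenomedullin partner and an amylin partner of CALCR, had signals from 0.90 to 1.62 in SUM159 and 0.83 to 1.82 in T47D. Its 4 ID8 differences were all above 0, from 0.08 to 0.31, with intervals reaching from -0.40 to 0.80 and adjusted p from 0.786 to 0.947. The highest value in T47D, 1.82, came from 1 Aldefluor- array with ID8 of experiment 5, where the other arrays of that group were 1.04 and 0.90. The ID8 difference of 0.31 in these cells was 1.00 in experiment 5, 0.06 in experiment 6 and -0.11 in experiment 7. Between the T47D fractions, RAMP3 differed by 0.20 with DMSO, where the groups were apart, as for 19.1% of all genes, and by 0.12 with ID8.

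ADM, the one ligand among the members, had 4 T47D group means between 2.27 and 2.68. With DMSO its T47D values were 2.22, 2.28 and 2.31 in Aldefluor+ and 2.65, 2.59 and 2.80 in Aldefluor- arrays of experiments 5, 6 and 7. All 3 experiments were lower in Aldefluor+ cells, by 0.43, 0.30 and 0.49, opposite to CALCR in the same arrays. The groups were apart, as for 19.1% of all genes in this comparison, and the fitted log2 difference was -0.41 ± 0.18 (SE). With ID8 the fractions overlapped, at 2.27, 2.41 and 2.66 against 2.78, 2.76 and 2.17, and differed by -0.13 ± 0.18. As these are the comparisons that chose CALCR, no test is given.

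In SUM159 with ID8, ADM was 2.32, 2.11 and 2.39 in Aldefluor+ and 2.41, 2.85 and 2.64 in Aldefluor- arrays, apart, as for 17% of all genes, and differing by -0.36 ± 0.18 (SE, 95% interval -0.75 to 0.02, limma adjusted p = 0.688). With DMSO these fractions differed by 0.11 ± 0.18. With ID8 ADM differed by -0.22 in SUM159 Aldefluor+, 0.25 in SUM159 Aldefluor-, 0.17 in T47D Aldefluor+ and -0.11 in T47D Aldefluor- cells, each with an SE of 0.18 and none past the threshold (adjusted p from 0.745 to 0.973).

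**Figure D3:**
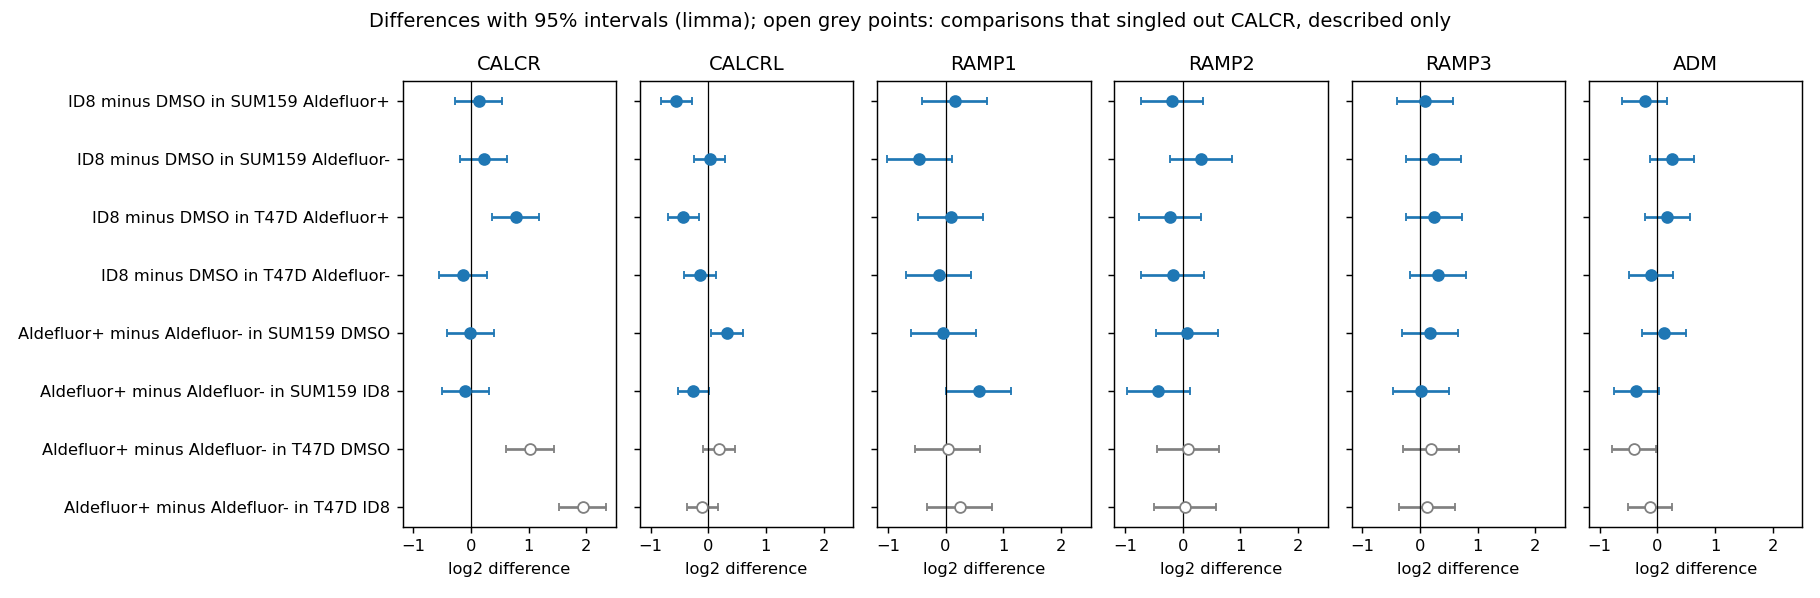
Fitted log2 differences (horizontal axis) with 95% intervals for the 6 genes in 8 comparisons (rows); filled blue points were tested and open grey points are the T47D fraction comparisons, which are described only. CALCR stands at 1.03 and 1.94 in the open points and at 0.77 for ID8 in T47D Aldefluor+ cells, and CALCRL at -0.56 and -0.43 for ID8 in Aldefluor+ cells of SUM159 and T47D.

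Over the 10 comparisons tested, limma called 0 of the 6 members at an adjusted p under 0.05. The shares of all genes called were 0.241% and 0.277% for ID8 in SUM159 Aldefluor+ and Aldefluor- cells, and 0.375% and 0.0179% in the T47D fractions. They were 0.0223% and 0.201% for the SUM159 fractions with DMSO and ID8. For the differences between responses they were 0.00447% between the SUM159 fractions, 0% between the T47D fractions, where 5.93% of genes had an unadjusted p under 0.05, and 0.33% and 0.067% between the lines in Aldefluor+ and Aldefluor- cells. At such shares no called member among 6 is what most lists of this size would give. Of 59 member differences tested, 7 had an unadjusted p under 0.05, where 5.93% to 11.3% of all genes did in the single comparisons. Among the 7 were CALCR for ID8 in T47D Aldefluor+ cells and for that response between the lines, which share arrays with the choice of CALCR. The median difference of the members was 0.13 for ID8 in T47D Aldefluor+ cells, where that of all genes was -0.01, and -0.05 in SUM159 Aldefluor+ cells, where that of all genes was also -0.01.

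The rest of the pathway was followed through 87 measured genes in 7 lists. Of these, 2 passed for ID8 in SUM159 Aldefluor- cells (2.3%, against 0.277% of all genes), 2 for the difference in response between the lines in Aldefluor+ cells (2.3%, against 0.33%), and 0 in the other 8 comparisons tested. With 0% to 0.375% of all genes called in the comparisons tested, 0 calls is what most short lists would give. The other ligands, CALCA, which codes for calcitonin and a calcitonin gene-related peptide, CALCB, IAPP (amylin) and ADM2, gave 0 calls, and 3 of the 4 had a mean below 2. CALCA had the largest value of the list, a response to ID8 that was larger by 0.94 ± 0.38 in T47D Aldefluor+ than Aldefluor- cells (SE, limma adjusted p = 0.776), and CALCB one of -0.51 ± 0.32 between the lines in Aldefluor+ cells (adjusted p = 0.6). For ID8 in T47D Aldefluor+ cells the ligands had a median difference of -0.22, with 1 of 4 above 0.

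Other class B receptors for peptide hormones gave 0 calls among 13 genes, of which 11 had a mean below 2. GLP1R, the receptor for glucagon-like peptide 1, had -0.67 ± 0.23 for the response between SUM159 fractions (SE, adjusted p = 0.605), and PTH2R, a parathyroid hormone receptor, 0.65 ± 0.24 for that between lines in Aldefluor+ cells (adjusted p = 0.293). Their median for ID8 in T47D Aldefluor+ cells was -0.02. Receptor partners and genes of desensitisation gave 0 calls among 8. GRK5, a kinase that phosphorylates active receptors, stood at -0.87 ± 0.31 for the response between lines in Aldefluor+ cells (adjusted p = 0.269), and ACKR3, a scavenging receptor that takes up adrenomedullin, at -0.82 ± 0.33 for the response between T47D fractions (adjusted p = 0.775). In T47D Aldefluor+ cells 1 of these 8 genes was above 0 with ID8, with a median of -0.22.

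Among 28 G proteins, phospholipases, cyclases, protein kinase A subunits and phosphodiesterases, PLCB1 fell with ID8 in SUM159 Aldefluor- cells. PLCB1, a phospholipase activated by Gq-coupled receptors, was 4.51 ± 0.03 with DMSO and 3.67 ± 0.12 with ID8 (SD, n = 3), a log2 difference of -0.84 ± 0.12 (SE, limma adjusted p = 0.00527). The adjusted p was 0.0534 when only the SUM159 arrays were fitted, and 0.124, 0.0696 and 0.185 without experiments 2, 3 and 4. The median of the list was -0.11 in that comparison, with 9 of 28 genes above 0, and 0.01 for ID8 in T47D Aldefluor+ cells.

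Of 5 measured genes of peptide processing and degradation, MME rose with ID8 in SUM159 Aldefluor- cells. MME, the membrane protease neprilysin, which cleaves several small peptides, was 3.97 ± 0.17 with DMSO and 5.30 ± 0.23 with ID8 (SD, n = 3), a log2 difference of 1.32 ± 0.24 (SE, limma adjusted p = 0.0263). The adjusted p was 0.272, 0.335 and 0.236 without experiments 2, 3 and 4, and 0.064 with all probe sets tested. ECE1, the endothelin-converting enzyme, differed in its response between the lines in Aldefluor+ cells by 1.24 ± 0.24 (SE, adjusted p = 0.0346). Its mean went from 4.55 with DMSO to 5.07 with ID8 in T47D and from 5.17 to 4.45 in SUM159. That call was lost without experiment 2, 3, 5 or 6 (adjusted p from 0.173 to 0.203) and with all probe sets (0.0735).

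Cyclic AMP-responsive genes were followed because CALCR signals through cyclic AMP. Of 11, RGS2, a regulator that limits Gq signalling, passed for the response between the lines in Aldefluor+ cells, at 1.72 ± 0.32 (log2, SE, limma adjusted p = 0.0346). Its mean was 2.59 ± 0.35 with DMSO and 3.38 ± 0.29 with ID8 in T47D, and 3.48 ± 0.32 and 2.55 ± 0.40 in SUM159 (SD, n = 3). The call was lost without experiment 2, 3, 6 or 7 (adjusted p from 0.149 to 0.178) and with all probe sets (0.0722). For ID8 in T47D Aldefluor+ cells, where CALCR was highest, the list had 7 of 11 genes above 0, a median of 0.20 and 0 calls. Between the T47D fractions its median was 0.24 with ID8 and -0.06 with DMSO, as a description.

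The hypoxia-induced genes, a list that ADM belongs to by its known regulation, gave 0 calls among 18. DDIT4, an inhibitor of the mTOR pathway, differed in response between the lines in Aldefluor+ cells by 0.99 ± 0.27 (SE, limma adjusted p = 0.136), and LOX, a collagen cross-linking oxidase, in Aldefluor- cells by -0.91 ± 0.26 (adjusted p = 0.396). For ID8 in T47D Aldefluor+ cells 14 of 18 were above 0, with a median of 0.09 where ADM stood at 0.17. Between the T47D fractions with DMSO the median was -0.08 with 6 of 18 above 0, where ADM stood at -0.41. The list and ADM had opposite signs between the T47D fractions with ID8, where the median was 0.09 with 13 of 18 above 0 and ADM stood at -0.13. So they had for ID8 in SUM159 Aldefluor+ cells, with a median of 0.05, 10 of 18 above 0 and ADM at -0.22.

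The genes whose pattern was most like that of CALCR were sought among 12658 genes with a mean above 2 in at least 1 group, by Pearson correlation over 24 arrays after the mean of each line was taken off. They were LMO4 (r = 0.88), SLC6A14 (0.86), AFG2A (0.84), COX7B2 (0.84) and RSPH1 (0.83), and these values are a description. Within the 12 T47D arrays r was 0.97, 0.92, 0.90, 0.88 and 0.91, and within the 12 SUM159 arrays -0.02, -0.39, 0.23, 0.17 and 0.08. The arrays share their groups and experiments, so the likeness is mostly that of the T47D group means. All 5 were lowest in T47D DMSO Aldefluor- cells and highest in T47D ID8 Aldefluor+ cells among the 4 T47D groups, whereas CALCR was lowest in ID8 Aldefluor- cells. LMO4 means in T47D were 3.79, 3.97, 5.05 and 5.58 for DMSO Aldefluor-, ID8 Aldefluor-, DMSO Aldefluor+ and ID8 Aldefluor+ cells. RSPH1 means were 2.22, 2.28, 2.70 and 3.62.

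**Figure D4:**
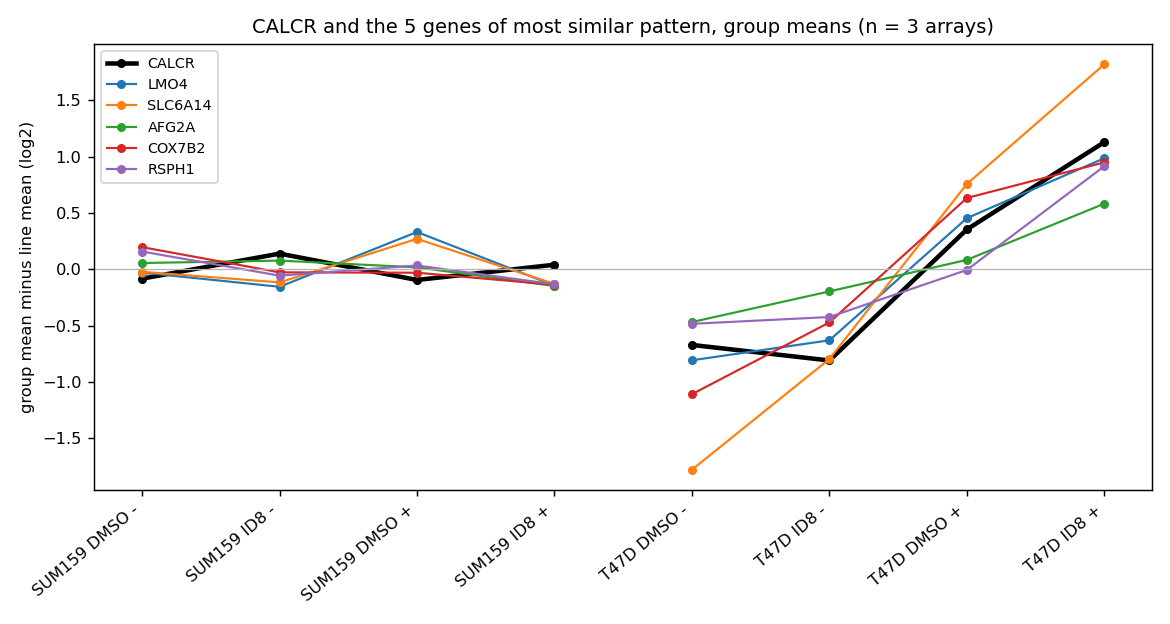
Group means of CALCR (thick black line) and of the 5 genes most like it, each minus its mean over the 4 groups of the line (log2, vertical axis); + and - are the Aldefluor fractions and each point is a mean of 3 arrays. In SUM159 the lines spread less, and in T47D all 6 genes lie below 0 in both Aldefluor- groups and reach their highest point in ID8 Aldefluor+ cells.

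For the other members the likeness was lower. CALCRL went most closely with KIF20A (r = 0.78), LKAAEAR1 (0.78) and PSMD3 (0.77), and ADM with BCL7A (0.76), BCAR4 (0.75) and ALG1 (0.74). RAMP1 went with IGSF3 (0.76), MRPS5 (0.75) and NFKB2 (0.72), RAMP2 with URB1-AS1 (0.76), NPRL2 (0.74) and MAN2B1 (0.74), and RAMP3 with ABAT (0.73), STKLD1 (0.71) and CIB1 (0.69).

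The members also differed in how far arrays of a group lay apart. The pooled SD within groups was 0.12 for CALCRL, 0.20 for ADM, 0.21 for CALCR, 0.26 for RAMP3, 0.29 for RAMP2 and 0.31 for RAMP1. The SD over the 12 arrays of a line was 0.85 for CALCR in T47D and 0.20 in SUM159, and for the remaining members it lay between 0.20 and 0.34 in either line.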

How the data were processed

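The deposited values are log2 signals per probe set, made by the authors with RMA and adjusted with ComBat for experimental and processing batch, per the labels' design text and the submitters' processing notes. For versions, ComBat batches and protected covariates the sources used here give nothing, and the adjustment can shrink differences. Of 53617 probe sets, 23871 named 1 gene symbol in the platform annotation, 1842 several and 27904 none. Gene numbers gave 22569 of these their current RefSeq symbol (GRCh38.p14), and the probe set with the highest mean stood for a gene, leaving 22395 genes.

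limma 3.58.1 (R 4.3.3) fitted 8 group means and, inside each line, a term per experiment, over all genes and 24 arrays; the script was tested on simulated data first. Genes were called at a Benjamini-Hochberg adjusted p under 0.05. SE and 95% intervals come from this fit and SD from arrays. The design text calls the experiments separate and the labels number them, which is where the pairing comes from. Deviations from group means correlated at -0.408 to -0.266 over 36 pairs of arrays of the same experiment and at 0.0986 to 0.244 over 72 pairs of different experiments and groups; the values were already adjusted for experimental batch, so this could not show pairing either way.

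The members and lists were chosen with earlier results of these data known. Named genes were the members, companion genes past the threshold (otherwise the 2 of largest difference per list) and, by Pearson correlation, the 5 genes most like CALCR and 3 for each other member. Promoter sequences are from RefSeq, GRCh38.p14. Arrays carry no count depth, and their number limits the precision.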

Additional observations from a re-analysis of the deposited data

Results flagged for a closer look

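The single-experiment values of the CALCR response to ID8 had opposite signs in the T47D fractions: 0.89, 1.28 and 0.15 in Aldefluor+ and -0.26, -0.01 and -0.15 in Aldefluor- cells (log2, experiments 5, 6 and 7), a difference of 0.91. The difference was not tested, since it contains the comparisons that singled CALCR out, and the 95% interval of the Aldefluor- response, -0.55 to 0.27, holds 0, so no direction is drawn for that fraction.

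The response of ADM to ID8 in Aldefluor+ cells was above 0 in all 3 experiments of T47D (0.05, 0.13 and 0.34) and below 0 in all 3 of SUM159 (-0.06, -0.52 and -0.09). The difference of 0.40 ± 0.26 (log2, SE) did not pass over all genes (limma adjusted p = 0.626). In both lines the ADM arrays with ID8 overlapped those with DMSO. The share of all genes with such signs was not computed, so no direction is drawn.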

How the results depend on the processing

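Without the experiment as a replicate block, 1 member was called for ID8 in SUM159 Aldefluor+ cells (CALCRL) and 2 in T47D Aldefluor+ cells (CALCR and CALCRL), where the fit with the block called 0. The fit without the block does not allow for the authors' adjustment for experimental batch, so its p-values can be too small and no call is drawn from it. Over all genes it called 397 and 530, against 54 and 84 with the block. For ID8 in Aldefluor- cells these counts were 225 against 62 in SUM159 and 35 against 4 in T47D; for the fractions with DMSO and ID8, 88 against 5 and 208 against 45 in SUM159, and 242 against 34 and 325 against 82 in T47D. For differences of responses they were 36 against 1 and 4 against 0 between the fractions of SUM159 and T47D, and 582 against 74 and 82 against 15 between the lines in Aldefluor+ and Aldefluor- cells. All other counts of called members stayed at 0 under the alternatives run: a trended and robust prior, only the arrays of the line, genes with a mean of at least 1 or 2, all probe sets, the mean of a gene's probe sets, arrays centred on their median, each experiment left out and the narrow SUM159 array left out. Under the mean of at least 2, only RAMP1 and ADM had a value. The 11 member differences with an interval clear of 0 kept their sign in all of these. They were picked by that interval in the same arrays, so a kept sign adds little. Only 7 of the 11 were tested. The rest were T47D fraction comparisons of CALCR and ADM and CALCR's difference of responses between T47D fractions, all described only. That difference of responses was 1.22 without experiment 7. Of the other 61 differences, 33 changed sign when an experiment or that array was left out, and 0 under the other settings, so no direction is drawn from them. Arrays have no depth; the low signal of CALCRL, RAMP3, RAMP2 and CALCR limits what they show.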
